A study of Mus musculus with 6 samples.

Results

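Rab GTPases were examined in sorted mouse bone marrow cells as every probe whose gene symbol is Rab followed by a number and at most 2 further characters. The rule found 116 of 45281 probes, which carry 62 gene symbols out of 19057 named on the array. Of these symbols, 59 are Rab GTPase genes and 3 are not: Rab3ip encodes an exchange factor, Rab5if an interacting protein, and Rab26os is a transcript opposite to Rab26. The 3 are described apart and enter no count of Rab GTPases.

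Rab GTPases are small switch proteins that mark the membranes of a cell. Loaded with GTP and anchored by lipid groups, each Rab recruits motors, tethers and other effectors that move a vesicle and dock it at a matching membrane; exchange factors switch Rabs on, GTPase-activating proteins switch them off, and GDP dissociation inhibitors take them back into the cytosol. In plasmacytoid dendritic cells (pDCs), which make type I interferon after Toll-like receptors in endosomes sense nucleic acids, the sorting of these receptors depends on the same endosomal transport.

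Total RNA of 6 samples was hybridised to single-colour Illumina BeadChips. The 3 samples of 1 group were CCR9+ pDCs and the 3 of the other CCR9- pDC-like precursors, which lack the chemokine receptor CCR9 and are described by the series as common dendritic cell precursors. All came from the bone marrow of female C57BL/6 mice aged 7 weeks, by FACS sorting; the sources used here do not state the other gates or whether animals were pooled. The isolations are called independent in the design text, and the p-values measure the spread between these 3 samples a group.

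Between 15254 and 16905 of the 45281 probes were above background on an array (detection p-value below 0.05), with CCR9+ pDC replicate 3 at the lower end. The same array had the lowest mean correlation with the other arrays of its group (0.976, against 0.983 to 0.993 for the other 5 arrays). Of the pDC markers listed here, 9 were tested, and each of them, Siglech and Tcf4 included, was above background on all 6 arrays; Ccr9 itself did not reach the filter. Klk1, Lag3 and Siglech fell in precursors, with log2 fold changes of -4.59, -2.58 and -0.50, Cd7 and Ly6d rose by 0.46 and 0.42, and the other 4 did not pass. All signals are log2 values after background correction and quantile normalization, and a log2 fold change subtracts the CCR9+ pDC mean from that of the precursors, so a negative value is lower in precursors. A gene is said to have risen or fallen in precursors where limma's adjusted p was below 0.05, and every adjusted p given is from limma. Signals of different probes are not compared with each other.

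Of the 59 Rab GTPase genes, 44 reached the filter and were tested, and 9 changed. Rab27a and Rab39 rose in precursors, while Rab7b, Rab6b, Rab44, Rab19, Rab33b, Rab3a and Rab21 fell. These 9 are 20.5% of the Rab genes tested, beside 35.8% of all 9561 genes tested; higher calls made up 18.2% of all genes and lower calls 17.6%. Rab7b and Rab6b changed at least 2-fold (2 of 44), which 12.8% of all genes did. The median absolute log2 fold change was 0.25 over the Rab genes and 0.31 over all genes, and the signed medians were -0.06 and 0.02. The groups did not overlap for 19 of the 44 Rab genes and for 50.9% of all genes. In sorted populations such as these, fewer cells that express a gene and less RNA per cell cannot be told apart.

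**Figure D1:**
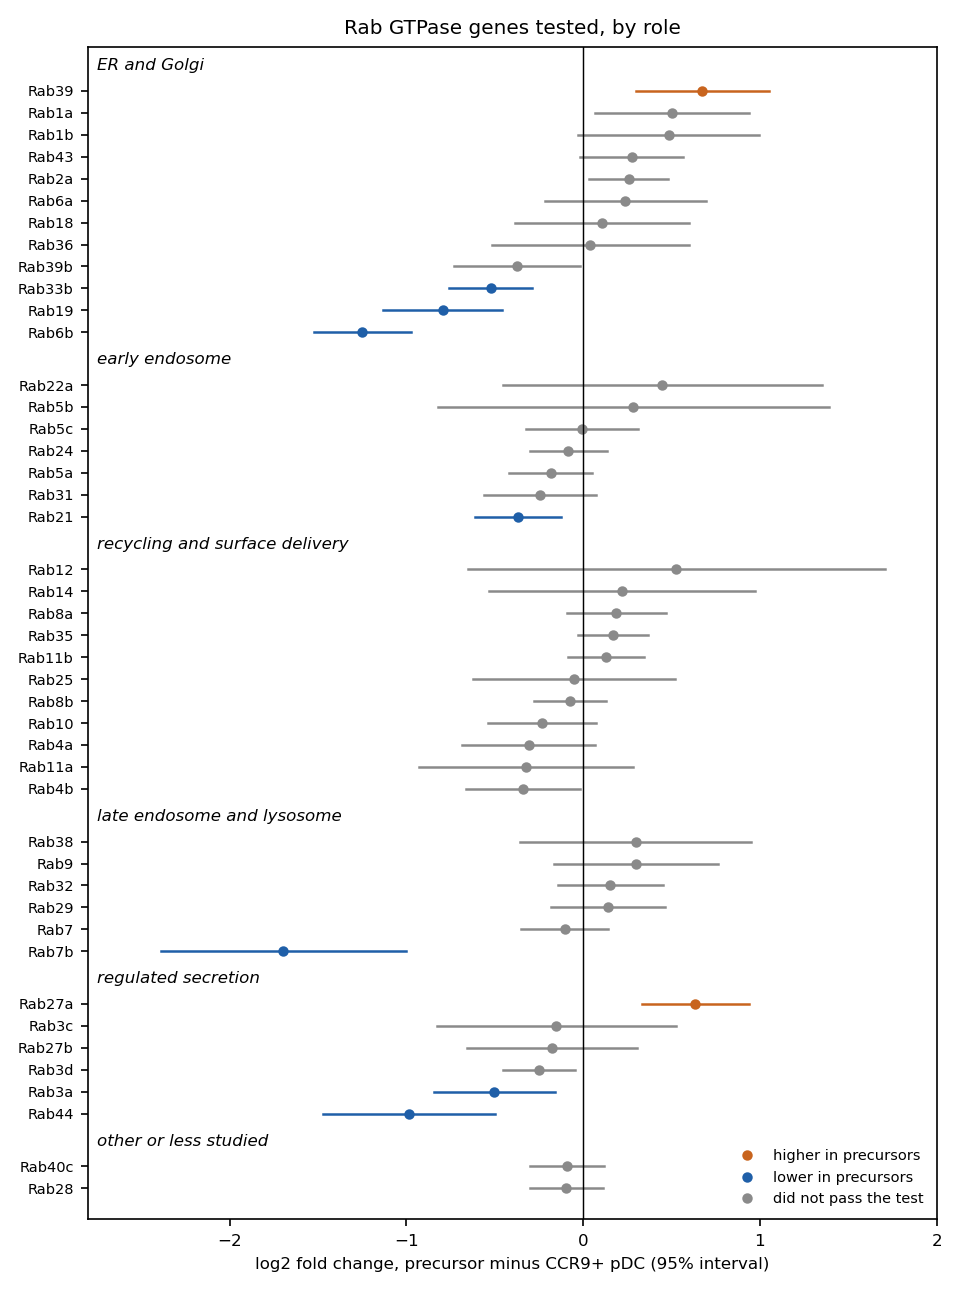
Log2 fold change (precursor minus CCR9+ pDC, x axis) of the 44 Rab GTPase genes tested, with its 95% interval from limma, grouped by role. Rab7b and Rab6b lie below -1, Rab27a and Rab39 are the 2 genes called higher in precursors, and the 35 grey genes did not pass the test.

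Rabs of the endoplasmic reticulum and the Golgi made up 12 of the genes tested. Of these 3 fell and 1 rose, 33.3% called beside 35.8% of all genes. Rab6b, a close relative of the Golgi transport GTPase Rab6a that is known best from neurons, had signals of 9.87, 9.66 and 9.98 on CCR9+ pDC replicates 1, 2 and 3. On the precursor arrays it had 8.51, 8.57 and 8.68. All 3 precursor arrays were below all CCR9+ pDC arrays. Rab6b therefore fell 2.38-fold, from 9.84 ± 0.16 to 8.59 ± 0.08 (log2, SD, n = 3; adjusted p = 0.000284).

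Rab6a, which directs retrograde and outward traffic at the Golgi, had signals from 7.39 to 8.14 in CCR9+ pDCs and from 7.90 to 8.05 in precursors, so its groups overlapped (log2 difference 0.24, adjusted p = 0.371). Its 4 probes that passed the filter differed in sign, at 0.24, 0.09, -0.31 and -0.27, and none was called. The difference between the log2 fold changes of Rab6b and Rab6a was -1.49. An exact two-sided permutation test of it over the arrays gave p = 0.1, the smallest that 20 arrangements of 6 arrays allow (Benjamini-Hochberg p = 0.167 over 5 pairs of related Rabs). No pair could therefore fall below 0.05, and the test cannot decide whether related Rabs differ. Every pair holds a gene called in these same data.

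Rab33b, a Golgi Rab that binds the autophagy protein Atg16l1, had signals of 12.26, 12.29 and 12.37 in CCR9+ pDCs and 11.72, 11.72 and 11.91 in precursors. The replicates lay close together and the groups were clearly apart. Rab33b fell 1.44-fold (adjusted p = 0.00649); under median scaling the log2 fold change was -0.32 and no longer passed (adjusted p = 0.117). Its relative Rab33a was not above background on any array.

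Rab19, a little-studied Golgi Rab, had signals of 7.05, 6.69 and 6.61 in CCR9+ pDCs and 6.10, 5.89 and 5.96 in precursors, again without overlap. It fell 1.74-fold (adjusted p = 0.00537), and its log2 fold change of -0.80 was -0.30 without background correction, still called. In a fit of each probe on its own, the second Rab19 probe had a log2 fold change of -0.65 and did not pass (adjusted p = 0.0965).

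Rab39, which has been placed on phagosomes and late endosomes as well as at the Golgi, was the Rab GTPase gene with the highest log2 fold change. Its signals were 7.01, 7.13 and 7.51 in CCR9+ pDCs and 7.96, 7.72 and 7.99 in precursors. Every precursor array was above every CCR9+ pDC array, and Rab39 rose 1.596-fold, from 7.22 ± 0.26 to 7.89 ± 0.15 (log2, SD, n = 3; adjusted p = 0.0160). Without background correction the log2 fold change of 0.67 was 0.38, still called. The call was lost without CCR9+ pDC replicate 2 (adjusted p = 0.0554) and without precursor replicate 1 (0.0599) or 3 (0.0594), with log2 fold changes between 0.63 and 0.64 in those fits. Its relative Rab39b, known from neurons, had a log2 difference of the other sign, -0.37, that did not pass (adjusted p = 0.0975). Their log2 fold changes differed by 1.05 (exact two-sided permutation p = 0.1, the smallest possible here, Benjamini-Hochberg p = 0.167).

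Besides Rab39b, 7 members of this group did not pass: Rab1a, Rab1b and Rab2a, which act between the endoplasmic reticulum and the Golgi, Rab18, which acts at lipid droplets and the endoplasmic reticulum, and Rab36, Rab43 and Rab6a. Rab1a had the largest difference among them (log2 0.50, 95% interval 0.07 to 0.94, adjusted p = 0.0733). It passed under 4 of 18 alternatives, with adjusted p from 0.0191 to 0.0429, and its second probe had -0.07. Rab1b exceeded background on 2 of 3 CCR9+ pDC arrays.

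The 250 bases upstream of the annotated start are shown for the 4 called genes of this group, because 3 of them fell and 1 rose in the same comparison. Sequences are from RefSeq (GRCm38.p6), written 5′ to 3′ on the gene's strand, with capitals marking each CANNTG motif, the E-box core that E proteins such as Tcf4 can bind. The windows are chr9:103111824-103112073 (plus strand) for Rab6b, chr3:51483716-51483965 (plus strand) for Rab33b, chr6:39381103-39381352 (plus strand) for Rab19 and chr9:53706233-53706482 (minus strand) for Rab39.
Rab6b: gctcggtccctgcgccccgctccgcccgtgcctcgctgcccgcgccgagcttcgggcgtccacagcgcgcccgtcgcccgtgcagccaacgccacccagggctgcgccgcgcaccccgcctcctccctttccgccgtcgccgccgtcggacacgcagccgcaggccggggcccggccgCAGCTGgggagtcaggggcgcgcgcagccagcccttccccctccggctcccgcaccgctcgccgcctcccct
Rab33b: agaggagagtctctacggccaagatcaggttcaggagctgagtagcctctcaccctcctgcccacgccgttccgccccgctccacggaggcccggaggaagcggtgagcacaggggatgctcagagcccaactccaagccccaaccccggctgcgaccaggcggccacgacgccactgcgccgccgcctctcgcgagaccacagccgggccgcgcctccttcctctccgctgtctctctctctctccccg
Rab19: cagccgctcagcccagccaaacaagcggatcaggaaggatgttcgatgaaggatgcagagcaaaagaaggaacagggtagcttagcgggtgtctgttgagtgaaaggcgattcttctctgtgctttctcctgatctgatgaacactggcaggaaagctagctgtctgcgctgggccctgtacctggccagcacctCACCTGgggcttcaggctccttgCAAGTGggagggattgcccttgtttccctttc
Rab39: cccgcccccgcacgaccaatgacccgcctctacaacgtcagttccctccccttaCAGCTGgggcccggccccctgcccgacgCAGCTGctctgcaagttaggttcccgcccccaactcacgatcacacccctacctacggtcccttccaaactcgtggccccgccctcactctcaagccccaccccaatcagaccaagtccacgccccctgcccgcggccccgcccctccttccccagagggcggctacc
The motif was present once upstream of Rab6b, at 2 places each upstream of Rab19 and Rab39, and not in this window of Rab33b. It was searched as CANNTG, which reads the same on both strands, and CACGTG counts within it. Of all 32851 promoter windows of this length, 66.2% held at least 1, as did 63.3% of the 60 windows of 48 Rab GTPase genes. GGGCGG on either strand, the GC box, was in 32.7% of all windows and in 66.7% of the Rab windows, whose median GC content was 60.2% against 52.4% over all. CACGTG was in 6.02% of all windows and in 8.33% of the Rab windows.

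**Figure D2:**
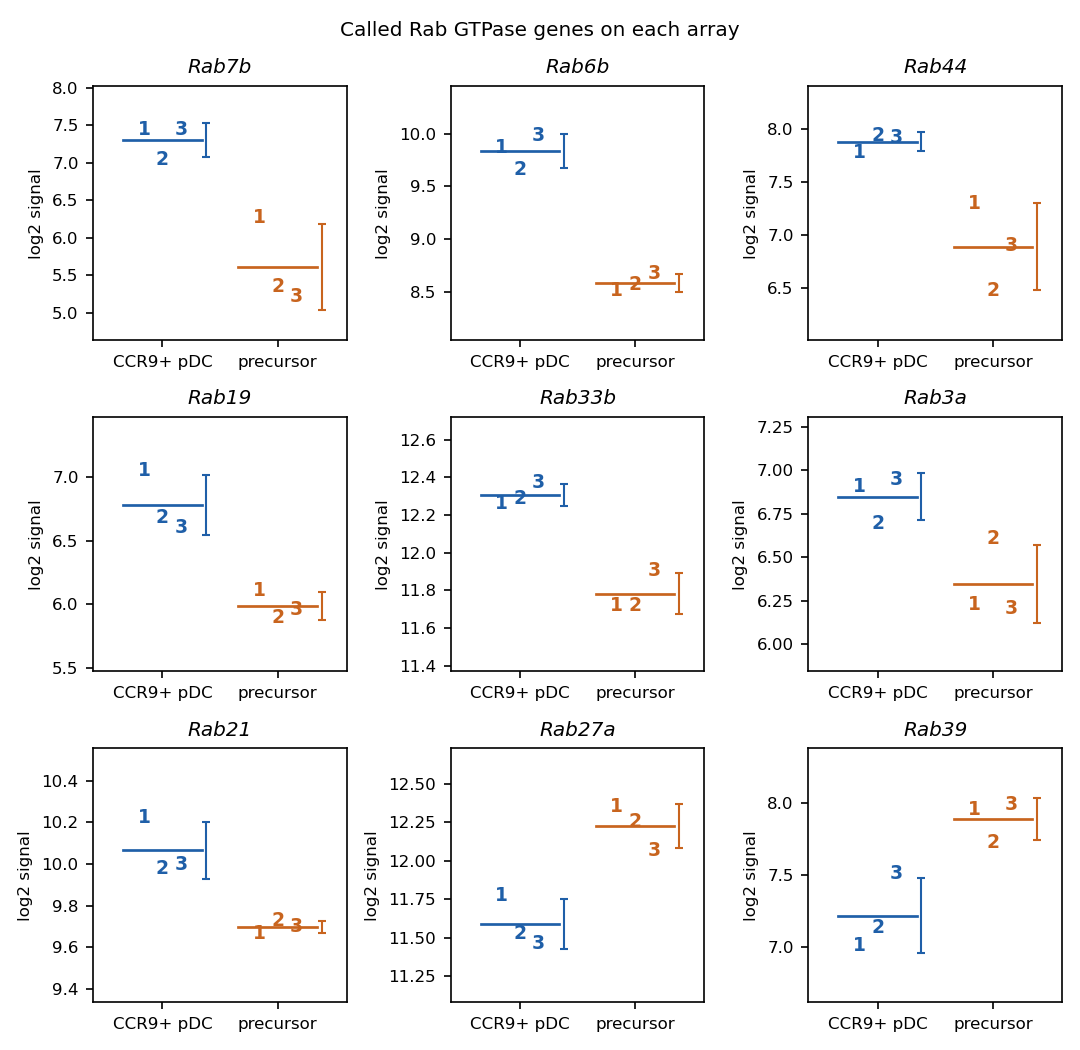
Log2 signal (y axis) of the 9 called Rab GTPase genes on each array, with the digit giving the replicate number, the line the group mean and the bar its SD (n = 3). In each of the 9 panels, picked by the test on these arrays, the CCR9+ pDC and precursor arrays do not overlap, as for 50.9% of all genes. Each panel has its own y axis, which does not start at 0.

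Rabs of early endosomes gave 1 call among 7 genes tested, 14.3% beside 35.8% of all genes. Rab21, which takes part in the endocytosis of integrins, had signals of 10.22, 9.98 and 9.998 in CCR9+ pDCs and 9.67, 9.73 and 9.70 in precursors. The groups did not overlap, and the difference was small: Rab21 fell 1.29-fold (adjusted p = 0.0305). The call was lost without CCR9+ pDC replicate 1 (adjusted p = 0.0687) or any 1 of the precursor arrays (0.0997, 0.0821 and 0.0846 without replicates 1, 2 and 3), and under median scaling the log2 fold change shrank from -0.37 to -0.10.

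Rab5a, Rab5b and Rab5c, the GTPases that define early endosomes, did not pass, with log2 differences of -0.18, 0.28 and -0.01. The 95% interval of Rab5c was -0.32 to 0.31 and that of Rab5b -0.82 to 1.39, so the data limit Rab5c far more closely than Rab5b. Rab22a, Rab31 and Rab24 did not pass either. Rab24, linked to autophagy, had 3 probes between -0.08 and 0.01.

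Rabs of recycling endosomes and of delivery to the cell surface gave no call among 11 genes tested in the limma fit, beside 35.8% of all genes. Of the 11, 1 had an unadjusted p below 0.05, beside 4323 of all 9561 genes. Rab4b passed under the replicate block (adjusted p = 0.0406) and Rab8b with the authors' processed values (0.0157), each in 1 of 18 alternatives. The 11 were Rab4a and Rab4b of fast recycling, Rab11a, Rab11b and Rab25 of the recycling endosome, Rab8a, Rab8b and Rab10 of routes to the plasma membrane, Rab14 between the Golgi and endosomes, Rab12, which acts in transport from recycling endosomes to lysosomes, and Rab35. Their log2 differences lay between -0.34 (Rab4b) and 0.53 (Rab12), with a median of -0.05. For 10 of the 11 the 95% interval stayed within a 2-fold change in either direction, beside 6949 of all 9561 genes. Rab12 was the exception among the 11. Rab11b illustrates the narrow spread of many members, at 13.44, 13.50 and 13.34 in CCR9+ pDCs and 13.57, 13.59 and 13.51 in precursors. Its groups did not overlap, yet the log2 difference was 0.13 (95% interval -0.08 to 0.35, adjusted p = 0.307).

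Rabs of late endosomes and lysosomes included the member with the largest decrease. Rab7b, which in macrophages promotes the degradation of Toll-like receptors and acts between late endosomes and the Golgi, had signals of 7.44, 7.04 and 7.44 on the CCR9+ pDC arrays. The precursor arrays had 6.27, 5.35 and 5.21. Precursor replicate 1 was the highest of its group and still below every CCR9+ pDC array. Rab7b fell 3.24-fold, from 7.31 ± 0.23 to 5.61 ± 0.58 (log2, SD, n = 3; adjusted p = 0.00447). It exceeded background on 1 precursor array, so the fold rests partly on signals not above background. Without background correction its log2 fold change of -1.70 became -0.66 and was still called. Its 2 probes were both called when fitted singly, at -1.70 and -0.87.

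Rab7, the main late endosomal Rab and the closest member by name, had signals from 11.06 to 11.28 in CCR9+ pDCs and from 10.98 to 11.15 in precursors. The groups overlapped, with a log2 difference of -0.10 (95% interval -0.35 to 0.14, adjusted p = 0.470) and probes on both sides of 0. The log2 fold changes of Rab7b and Rab7 differed by -1.59 (exact two-sided permutation p = 0.1, the smallest possible here, Benjamini-Hochberg p = 0.167). Their within-array differences did not overlap between groups, nor did those of Rab6b and Rab6a or of Rab39 and Rab39b. Each of these pairs holds a gene called in these same data, so the lack of overlap is no separate evidence. Rab9, which returns receptors from late endosomes to the Golgi, Rab29, a partner of the kinase Lrrk2, and Rab32 and Rab38, which serve lysosome-related organelles such as melanosomes, did not pass. Rab32 differed by 0.15 (95% interval -0.14 to 0.45).

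Rabs of regulated secretion gave 3 calls among 6 genes tested, 50% of a small group, beside 35.8% of all genes. Rab27a, which docks secretory lysosomes and exosome-bearing endosomes at the plasma membrane, had signals of 11.78, 11.53 and 11.46 in CCR9+ pDCs. In precursors they were 12.35, 12.25 and 12.07, all above the highest CCR9+ pDC array. Rab27a rose 1.55-fold, from 11.59 ± 0.16 to 12.22 ± 0.14 (log2, SD, n = 3; adjusted p = 0.00864). Rab27b, its relative, exceeded background on 2 CCR9+ pDC arrays and 1 precursor array and did not pass (log2 difference -0.18, adjusted p = 0.534). The log2 fold changes of Rab27a and Rab27b differed by 0.81 (exact two-sided permutation p = 0.2, Benjamini-Hochberg p = 0.25).

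Rab44, a large Rab with calcium-binding motifs that acts in mast cell degranulation in mice, had signals of 7.78, 7.93 and 7.92 in CCR9+ pDCs and 7.30, 6.48 and 6.90 in precursors. The precursor arrays were lower and more spread (SD 0.41 against 0.09). Rab44 fell 1.98-fold (adjusted p = 0.0102). Without background correction the log2 fold change of -0.99 became -0.52 and was still called, and the call was lost on dropping the 2 arrays that carry number 3 (adjusted p = 0.0593), an alternative added once the values were known.

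Rab3a, a Rab of synaptic and secretory vesicles, had signals of 6.91, 6.69 and 6.94 in CCR9+ pDCs and 6.23, 6.61 and 6.21 in precursors. Precursor replicate 2 came close to the lowest CCR9+ pDC array. Rab3a fell 1.42-fold (adjusted p = 0.0335), but its second probe had a log2 fold change of -0.07. That probe had signals from 5.28 to 5.73 over the 6 arrays. The lowest signals above background were 5.45 to 5.64, so that probe could show little decrease. The call was lost without CCR9+ pDC replicate 1 (adjusted p = 0.0856) or 3 (0.0665) and without precursor replicate 1 (0.113) or 3 (0.107), with the mean of both probes (log2 fold change -0.29) and without background correction (-0.20). Rab3d, found on secretory granules, had signals from 11.28 to 11.36 in CCR9+ pDCs and from 11.01 to 11.11 in precursors. Those groups did not overlap, but the log2 difference of -0.25 did not pass (adjusted p = 0.0637); it passed under 7 of 18 alternatives and was -0.02 under median scaling. The log2 fold changes of Rab3a and Rab3d differed by -0.25, with within-array differences that overlapped (exact two-sided permutation p = 0.3, Benjamini-Hochberg p = 0.3). Rab3c did not pass.

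Rab28 and Rab40c, placed in no transport step here, had log2 differences of -0.095 and -0.091 and did not pass. Over all 35 Rab genes that did not pass, log2 differences ran from -0.37 to 0.53. Their 95% intervals lay within a 2-fold change in either direction for 32 of them, a set picked for not passing. Over all 44 Rab genes tested the count was 36, beside 6949 of all 9561 genes. Among the 35, the 5 with an unadjusted p below 0.05 were Rab1a, Rab2a, Rab39b, Rab4b and Rab3d. Over the 44, 14 had such a p, beside 4323 of all 9561 genes.

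Many markers of other cells also fell in precursors, the direction of Rab7b, Rab44 and the other 5 Rab genes that fell. With 2 groups, all genes called lower share that direction, and they were 17.6% of all genes. All 14 macrophage markers tested fell; their summed linear signal was 50479 to 74425 in CCR9+ pDCs and 2308 to 2596 in precursors, where 8 of the 14 were above background on all arrays and C1qa and Hmox1 on none. All 12 granulocyte markers tested fell (103527 to 117972 against 51960 to 60946). The 7 basophil and mast cell markers tested fell as well (3594 to 4564 against 772 to 1037), with Il4 not above background in precursors. Of smaller lists, 2 of 6 B-lineage, 2 of 3 T and NK cell and 3 of 5 erythroid markers fell. The 10 cell cycle genes tested rose (4753 to 5403 in CCR9+ pDCs, 24853 to 26744 in precursors). Rab27a and Rab39 rose too, as did 18.2% of all genes. The part of any of these in the Rab results was not tested.

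A set of 5 Rab genes, chosen after their values were seen, stood out by CCR9+ pDC replicate 3 alone: on that array Rab12, Rab5b, Rab22a, Rab14 and Rab38 lay more than 0.5 log2 units below both other CCR9+ pDC arrays. They are 11.4% of the Rab genes tested, against 7.88% of all genes by the same measure. The search covered only low values on this array. Rab11a and Rab3c were high there, at 7.38 against 6.58 and 6.60 and at 6.48 against 5.47 and 5.44. Other arrays stood apart too, as for Rab18 on CCR9+ pDC replicate 1 (7.73 against 8.41 and 8.31). Rab12 had 7.41, 7.07 and 5.41 in CCR9+ pDCs and 7.19, 7.32 and 6.97 in precursors. Its log2 difference was 0.53 with all arrays and -0.08 without that array. The replicate 3 values of Rab12 (5.41) and Rab38 (5.21) were not above background, so the size of their drop is not exact. Rab5b had 9.53, 8.92 and 7.71 in CCR9+ pDCs and 9.42, 8.98 and 8.61 in precursors, so replicate number 3 was the lowest in both groups. Rab22a, a Rab of early and recycling endosomes, had 8.71, 8.26 and 7.13 against 8.61, 8.45 and 8.37. Rab14 had 10.80, 10.61 and 9.56 against 10.63, 10.60 and 10.40. Without CCR9+ pDC replicate 3 the log2 differences of Rab5b, Rab22a, Rab14 and Rab38 were -0.22, -0.0031, -0.16 and -0.03, and none of the 5 passed with or without it.

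**Figure D3:**
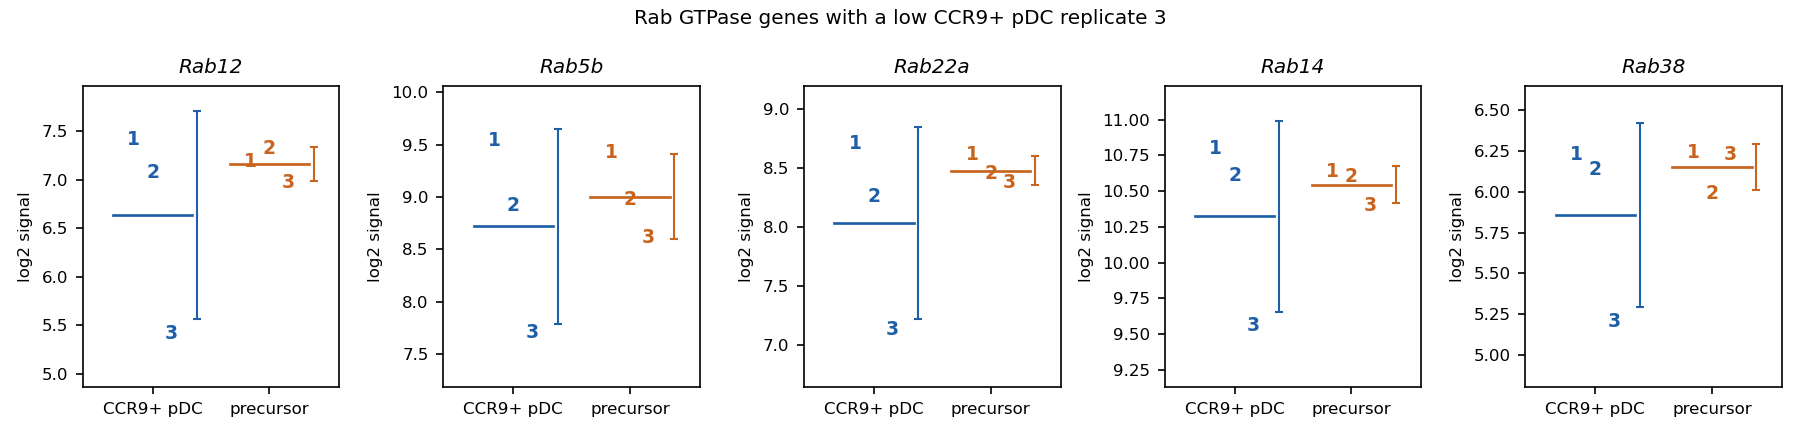
Log2 signal (y axis) of the 5 Rab genes whose CCR9+ pDC replicate 3 lay more than 0.5 below both other CCR9+ pDC arrays, with the digit giving the replicate number, the line the group mean and the bar its SD (n = 3). Rab12 drops to 5.41 on that array, which like the 5.21 of Rab38 is not above background; each panel has its own y axis, which does not start at 0.

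The remaining 15 Rab GTPase genes did not reach the filter of 3 arrays. Rab2b, Rab30, Rab33a, Rab20, Rab9b, Rab40b, Rab15, Rab26, Rab37 and Rab3b had no probe above background on any array. Rab17 and Rab42 were above background on 1 CCR9+ pDC array, Rab34 on 2 CCR9+ pDC arrays, Rab13 on 1 precursor array and Rab23 on 1 array of each group. Signals below background do not show that a gene is silent.

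Of the 17 Rab genes with more than 1 probe past the filter, 9 had probes of the same sign. The other 8 were Rab11b, Rab14, Rab1a, Rab24, Rab5a, Rab6a, Rab7 and Rab8b, and no probe of these was called in a fit of 14282 single probes. The 3 symbols that are not Rab GTPases were all tested. Rab3ip, the exchange factor Rabin8 that activates Rab8, had 6.90, 6.84 and 6.74 in CCR9+ pDCs and 7.60, 7.73 and 7.56 in precursors, and rose 1.74-fold (adjusted p = 0.00101; log2 fold change 0.80, or 0.41 without background correction, called in both fits). Rab5if and Rab26os differed by 0.38 and 0.23 and did not pass (adjusted p = 0.0577 and 0.231).

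Regulators and effectors of Rabs, together with prenylation enzymes, tethers and subunits that build lysosome-related organelles, were taken from 6 lists, with 133 different genes tested, Rab3ip among them. Not all of these act on Rabs themselves. Of these 24 fell and 9 rose, 24.8% called beside 35.8% of all genes, and their median log2 fold change was -0.08. By list the called share ran from 0% for tethers to 42.9% for the 7 genes of prenylation and membrane extraction. The direction of the split depended on the scaling, with 8 lower and 16 higher under median scaling, which moves the median of all genes from 0.02 to 0.19. Without precursor replicate 1 the lower calls were 14.

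Exchange factors gave 7 lower and 3 higher calls among 30 tested, 33.3% called beside 35.8% of all genes, with a median of -0.12. Dennd2c, which activates Rab9, had 5.97, 5.77 and 5.77 in CCR9+ pDCs and 7.46, 7.08 and 7.10 in precursors and rose 2.59-fold (adjusted p = 0.000399). Without background correction its log2 fold change of 1.37 was 0.55, still called. Rgp1, a subunit of the exchange factor of Rab6, fell 1.91-fold, in the same direction as Rab6b (log2 fold change -0.94, -0.61 without background correction and -0.46 with the mean of its probes, called in each). Ric1, the other subunit of that factor, did not pass (log2 difference -0.32, adjusted p = 0.0827), and Rab6a had 0.24. Dennd1c, which acts on Rab35, fell 1.68-fold. GTPase-activating proteins gave 5 lower and 2 higher calls among 27 tested, 25.9% called (median -0.01). Rabgap1l fell 2.59-fold, from 7.95 ± 0.04 to 6.58 ± 0.16 (log2, SD, n = 3; adjusted p = 0.000147); its log2 fold change of -1.38 was -0.71 without background correction, still called. Tbc1d8 fell 1.88-fold. Tbc1d2, which acts on Rab7, rose 1.77-fold. Tbc1d9 fell 1.65-fold, and did not pass when precursor replicate 1 (adjusted p = 0.0567) or 3 (0.0612) was left out, under median scaling (0.0915) or with the mean of its probes (log2 fold change -0.22).

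Of 7 genes of prenylation and membrane extraction tested, 2 fell and 1 rose, 42.9% called beside 35.8% of all genes (median -0.20). Rabggta, a subunit of the enzyme that attaches geranylgeranyl groups to Rabs, had 7.66, 7.66 and 7.44 in CCR9+ pDCs and 6.10, 6.28 and 6.401 in precursors. The groups lay over 1 log2 unit apart, and Rabggta fell 2.51-fold (adjusted p = 0.000252); without background correction the log2 fold change of -1.33 was -0.61, still called. The other calls were in enzymes that modify farnesylated proteins rather than Rabs: Fntb rose 1.58-fold and Zmpste24 fell 1.29-fold, a call lost without any 1 array except CCR9+ pDC replicate 2 (adjusted p from 0.0536 to 0.113) and under median scaling (log2 fold change -0.10). Gdi2, a GDP dissociation inhibitor, had a log2 difference of 0.23 (adjusted p = 0.234). Chm did not reach the filter.

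Effectors gave 8 lower and 1 higher call among 37 tested, with a median of -0.15. That is 24.3% called, beside 35.8% of all genes (17.6% lower and 18.2% higher). Rilpl1, which binds Rab8 and Rab10 once the kinase Lrrk2 has phosphorylated them, fell furthest of all 133 genes tested: it had 10.32, 10.62 and 10.61 in CCR9+ pDCs and 8.27, 8.77 and 8.51 in precursors, a 3.99-fold decrease (adjusted p = 0.000147). Rabep2, an effector of Rab5, fell 1.90-fold. Sytl3, a binding partner of Rab27, had 5.78, 7.11 and 6.62 in CCR9+ pDCs and 5.17, 5.03 and 5.06 in precursors. It fell 2.66-fold (adjusted p = 0.0135), while Rab27a rose; it exceeded background on 1 precursor array, its log2 fold change of -1.41 was -0.48 without background correction, and it did not pass once the arrays numbered 3 were dropped (adjusted p = 0.0774). Nde1, a dynein regulator also needed in mitosis, rose 2.13-fold (adjusted p = 0.000167). The cell cycle genes above rose too, as did 18.2% of all genes, and a link between them and Nde1 was not tested.

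Tethering complexes gave no call among 16 genes tested in the limma fit, beside 35.8% of all genes, and their median was -0.03. An unadjusted p below 0.05 was found for 2 of the 16, beside 4323 of all 9561 genes. Vps11 lay just outside the threshold (log2 difference -0.33, adjusted p = 0.0501). Mouse pDCs need lysosome-related organelles for interferon production through Toll-like receptors 7 and 9. In the list for these organelles, 2 of 18 genes rose and 2 fell, 22.2% called (median -0.11). Ap3b1, a large subunit of the AP-3 adaptor, rose 1.52-fold (8.05 ± 0.12 to 8.65 ± 0.08, log2, SD, n = 3; adjusted p = 0.00435). Ap3d1, the other large subunit of the same complex, fell 1.39-fold (adjusted p = 0.0149), and its call was lost without CCR9+ pDC replicate 2 (0.0529), without precursor replicate 1 (0.0604) or 3 (0.0572), and under median scaling (log2 fold change -0.22). Bloc1s2 rose 1.33-fold (log2 0.41, and 0.64 under median scaling). Snapin fell 1.37-fold, and its call was lost without CCR9+ pDC replicate 2 (adjusted p = 0.0556), without precursor replicate 1 (0.0672) or 3 (0.0538), and under median scaling (-0.19). Bloc1s6 had a log2 difference of 0.10 and did not pass (adjusted p = 0.497).

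**Figure D4:**
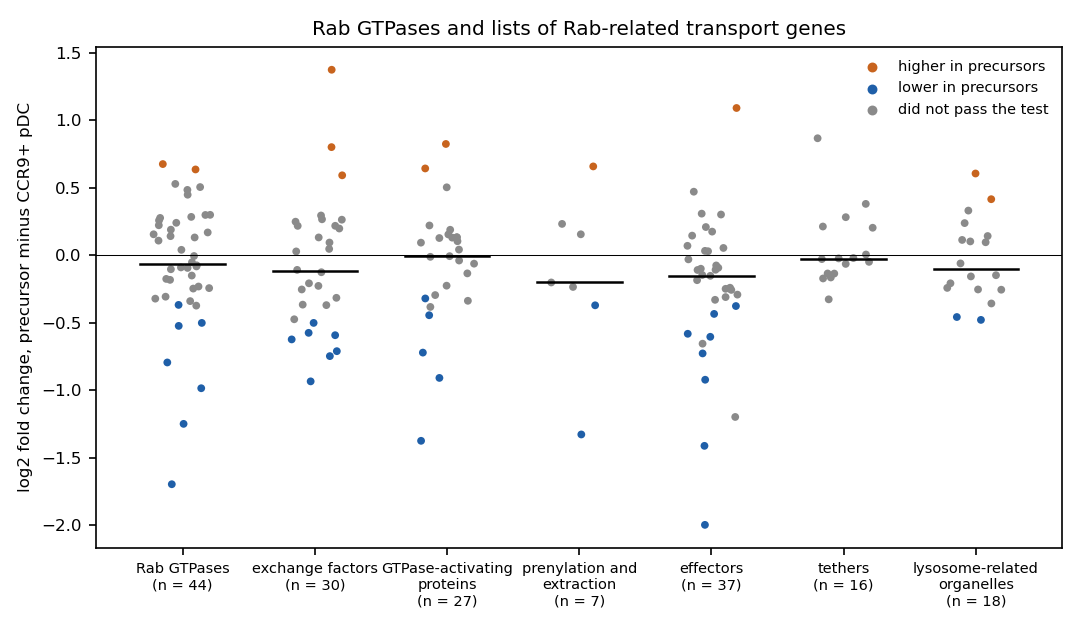
Log2 fold change (precursor minus CCR9+ pDC, y axis) of each tested gene, 1 point a gene, for the Rab GTPases and the 6 lists of Rab-related transport genes, with the black line at the list's median. The lowest point is Rilpl1 at -1.998 and the highest Dennd2c at 1.37; no tether was called.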

How the data were processed

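Linear, non-normalized intensity values were deposited for each probe, beside a detection p-value for every array, per the file headers. BeadStudio and lumi are named in the submitters' processing notes, without versions or roles. A second deposited table holds the authors' processed intensity values, on a linear scale by their range; how they were made is not stated in the sources used here, and they served as an alternative only.

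Background was corrected with limma's normexp model from the detection p-values (offset 16); signals were then quantile normalized and log2 transformed (R 4.3.3, limma 3.58.1). A probe was kept if 3 or more of the 6 arrays had a detection p-value under 0.05 (16857 probes). Symbols came from the platform annotation and, by Entrez identifier, from RefSeq (GRCm38.p6): 34885 probes had 1 symbol, 18 several and 10378 none there, and 34807 matched RefSeq. The kept probe with the highest mean signal stood for a gene (9561 genes). Groups were compared with lmFit and eBayes (4 residual and 2.63 prior degrees of freedom), with Benjamini-Hochberg adjustment over all genes. The fit and the adjustment were tested on simulated gene values. Background correction, normalization, the filter and the choice of probe were not part of that test. Precision is limited by 3 arrays a group.

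Members and lists were chosen with earlier results of these data known. Every Rab GTPase gene was to be accounted for, and of each pathway list up to 4 called genes with the largest change, plus Ap3b1, Bloc1s6, Gdi2 and Chm, were to be named; 1 further gene of that rule is not reported here. Of 173 listed pathway genes, 163 had a probe with that symbol or a single RefSeq synonym. Of the 62 member symbols, 51 had a promoter in the RefSeq table. Alternatives were other background corrections, scalings, filters, probe summaries and priors, a replicate term, and leaving out arrays.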

Additional observations from a re-analysis of the deposited data

How the results depend on the processing

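Over the alternatives that tested them, Rab6b, Rab7b, Rab27a and Rab19 were called in the same direction every time. Their log2 fold changes ran from -1.34 to -0.997, -2.03 to -0.66, 0.48 to 0.84 and -0.88 to -0.30. The second Rab19 probe, fitted singly, did not pass. The strictest filter, above background on all 6 arrays, left Rab7b untested. Rab genes called higher were 2, with 4 when the prior followed an intensity trend robustly and 4 without background correction; leaving out 1 array gave 1 to 3. Rab genes called lower were 7, and 4 under median scaling and 4 without both arrays numbered 3 (chosen after seeing the data), and 10 with the authors' processed values, where 3 were higher; leaving out 1 array gave 5 to 7. Pathway genes called higher were 9, and 16 under median scaling, with 9 to 13 on leaving out 1 array. Pathway genes called lower were 24, and 8 under median scaling, with 14 to 24 on leaving out 1 array. Calls over all genes were 3420, from 2442 to 3551 on leaving out 1 array, and the higher share of calls was 68.3% under median scaling against 50.8%.

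Replicate numbers are shared between groups. Same-numbered arrays deviated together with r = 0.35, 0.04 and 0.24 over genes for numbers 1, 2 and 3. Arrays with different numbers gave r from -0.30 to 0.06, so numbers 1 and 3 lay above that range and number 2 within it. The main fit did not take the numbers as pairs, and whether they are pairs was not tested. With the replicate number as a block, 3 Rab genes were called higher and 6 lower, 3361 genes in all, and Rab21 and Rab3a no longer passed (adjusted p = 0.0563 and 0.0773).

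Over all alternatives, 7 Rab genes that did not pass were called at least once: Rab1a, Rab1b, Rab2a, Rab28, Rab3d, Rab4b and Rab8b. The sign turned in at least 1 alternative for 20 of the 44 Rab genes, 8 of them under median scaling. None of the 20 was called in the main fit or in the alternative that turned it. Among them, Rab28 and Rab8b were called with the authors' processed values, where their sign was not turned. Without CCR9+ pDC replicate 3, Rab12, Rab14, Rab22a, Rab38 and Rab5b had log2 differences of -0.083, -0.16, -0.0031, -0.027 and -0.22, and the highest on leaving out 1 array were 0.92, 0.46, 0.79, 0.48 and 0.69. Without both arrays numbered 3, Rab14, Rab38 and Rab5b had -0.086, -0.063 and -0.027. With probe means Rab6a had -0.064 and Rab7 0.073, and under median scaling Rab7 had 0.13. Single probes gave -0.21 for Rab14, -0.31 and -0.27 for Rab6a, and 0.22 and 0.11 for Rab7. The causes were not tested. The log2 fold changes of Rab7b, Rab19, Rab39, Rab3a and Rab44 were over 1.5 times smaller without background correction.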
